A study of Mus musculus with 16 samples.

Results

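The genes described here are 44 mitosis and spindle genes, whose products act in the G2 and M phases of the cell cycle. They were chosen by name from the 48397 gene symbols of the count files, with earlier results of these data known. All 44 were among the 17038 genes that passed the filter on low counts. Their RNA was measured in 16 sequencing libraries of primary hippocampal neurons, which had been dissociated from CD1 mouse pups of postnatal day 0 to 2. Each group held 4 libraries, and the cultures of every group, the control neurons included, received AraC on day 3 *in vitro* (DIV) and were harvested on 17 DIV. On 10 and 13 DIV the neurons were given 10-fold concentrated medium that had been conditioned by immortalized astrocytes. The astrocytes of the control group were Apoe-/- and supplied no apoE, and those of the other groups were homozygous for the human allele of apoE2, apoE3 or apoE4 in place of the mouse gene, so that the neurons received lipoproteins of that isoform. No deletion of mouse *Apoe* is named for the neurons themselves in any group. AraC was added at 5 mmol/L according to the sample labels, whereas the methods of the study state a micromolar concentration.

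Cells enter mitosis when cyclin B activates the kinase CDK1, and the polo, Aurora and NIMA-related kinases then drive centrosome separation and spindle assembly. Chromosomes condense with topoisomerase IIα and condensin, attach to microtubules at the kinetochore, and separate when the anaphase-promoting complex removes cyclin B and securin. Neurons have left the cell cycle, whereas glia and progenitors in a neuronal culture can still divide. AraC (cytosine arabinoside) is a nucleoside analogue that blocks DNA synthesis and is added to remove such dividing cells.

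Transcription of many genes of this kind peaks in G2 and M through 2 promoter elements. One is the CHR (cell cycle genes homology region), through which the DREAM complex represses in resting cells and MYBL2 and FOXM1 activate in dividing cells. The other is the CCAAT box, which binds NF-Y. RefSeq promoters, of 250 bases before to 50 bases after each start site on GRCm38.p6, were available for 37 of the 44 members. The CHR letters TTTGAA, on either strand, occurred in the promoters of 26 of these 37 members (70.3%), against 20.2% of 27025 mouse genes. CCAAT, on either strand, occurred in 28 of the 37 (75.7%), against 41.1% of all genes, and both were found in 22 (59.5%), against 8.97% of all genes. A CHR match that began within 50 bases of a start site was present in 23 members (62.2%) and in 5.72% of all genes. These letter counts describe the sequence only and say nothing about whether a factor was bound in these cultures. The promoters of the 6 members that differed from the control with the replicate number in the fit, as described further on, and that of *Cdk1*, the kinase at the centre of the group, are printed here 5′ to 3′ on the strand of the gene, with the matches to both elements, on either strand, in capitals.
Top2a: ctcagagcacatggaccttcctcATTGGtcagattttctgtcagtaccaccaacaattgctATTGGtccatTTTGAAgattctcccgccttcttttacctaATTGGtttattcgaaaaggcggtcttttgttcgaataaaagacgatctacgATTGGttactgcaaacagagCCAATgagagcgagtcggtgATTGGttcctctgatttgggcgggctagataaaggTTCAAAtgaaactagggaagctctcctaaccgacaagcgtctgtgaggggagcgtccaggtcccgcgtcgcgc
Cenpf: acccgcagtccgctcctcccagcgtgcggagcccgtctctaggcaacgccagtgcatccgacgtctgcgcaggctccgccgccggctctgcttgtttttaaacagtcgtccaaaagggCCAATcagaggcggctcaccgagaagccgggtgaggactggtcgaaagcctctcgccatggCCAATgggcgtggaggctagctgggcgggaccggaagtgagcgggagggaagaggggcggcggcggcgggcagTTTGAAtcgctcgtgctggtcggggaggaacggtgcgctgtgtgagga
Bub1b: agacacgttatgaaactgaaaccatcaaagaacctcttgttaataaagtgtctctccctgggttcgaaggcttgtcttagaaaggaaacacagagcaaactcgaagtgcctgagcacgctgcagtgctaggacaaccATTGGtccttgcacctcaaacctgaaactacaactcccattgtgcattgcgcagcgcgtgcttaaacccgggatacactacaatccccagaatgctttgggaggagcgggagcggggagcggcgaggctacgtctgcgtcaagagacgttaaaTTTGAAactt
Nek2: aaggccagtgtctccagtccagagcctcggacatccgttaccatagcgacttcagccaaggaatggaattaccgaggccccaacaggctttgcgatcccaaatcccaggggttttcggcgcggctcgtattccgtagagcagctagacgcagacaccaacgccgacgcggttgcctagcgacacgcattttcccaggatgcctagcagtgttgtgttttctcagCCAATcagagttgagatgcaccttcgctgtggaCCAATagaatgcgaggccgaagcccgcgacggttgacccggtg
Ect2: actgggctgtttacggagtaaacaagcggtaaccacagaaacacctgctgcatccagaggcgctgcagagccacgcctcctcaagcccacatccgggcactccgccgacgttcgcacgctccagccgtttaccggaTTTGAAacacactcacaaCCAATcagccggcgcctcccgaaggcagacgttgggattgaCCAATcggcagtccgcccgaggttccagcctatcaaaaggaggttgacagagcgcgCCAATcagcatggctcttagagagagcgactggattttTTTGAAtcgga
Gtse1: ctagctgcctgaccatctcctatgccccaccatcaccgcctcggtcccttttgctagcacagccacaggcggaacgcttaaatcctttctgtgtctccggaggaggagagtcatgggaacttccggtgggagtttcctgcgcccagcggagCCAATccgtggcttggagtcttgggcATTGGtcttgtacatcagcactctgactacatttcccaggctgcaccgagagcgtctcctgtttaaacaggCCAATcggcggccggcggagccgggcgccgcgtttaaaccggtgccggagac
Cdk1: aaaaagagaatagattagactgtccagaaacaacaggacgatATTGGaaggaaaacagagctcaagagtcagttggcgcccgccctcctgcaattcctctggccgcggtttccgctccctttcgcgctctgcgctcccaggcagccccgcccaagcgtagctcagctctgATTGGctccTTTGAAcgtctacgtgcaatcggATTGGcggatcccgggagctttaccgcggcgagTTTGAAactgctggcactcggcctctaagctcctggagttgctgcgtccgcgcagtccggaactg

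The promoter of *Top2a* lies at chr11:99024140-99024439 (minus strand), that of *Cenpf* lies at chr1:189688037-189688336 (minus strand), that of *Bub1b* lies at chr2:118597961-118598260 (plus strand). The others lie at chr1:191821223-191821522 (plus strand) for *Nek2*, chr3:27153829-27154128 (minus strand) for *Ect2*, chr15:85859457-85859756 (plus strand) for *Gtse1* and chr10:69352863-69353162 (minus strand) for *Cdk1*. *Cenpf*, *Bub1b* and *Ect2* hold a CHR match just after the start site and *Top2a* and *Cdk1* hold one just before it, whereas *Nek2* and *Gtse1* hold CCAAT without TTTGAA in this window. *Top2a* has 6 CCAAT matches. The promoters of *Birc5*, *Nuf2*, *Tacc3*, *Nusap1* and *G2e3* held neither TTTGAA nor CCAAT. Only these exact letters were searched, so another form of either element would have been missed.

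**Figure D1:**
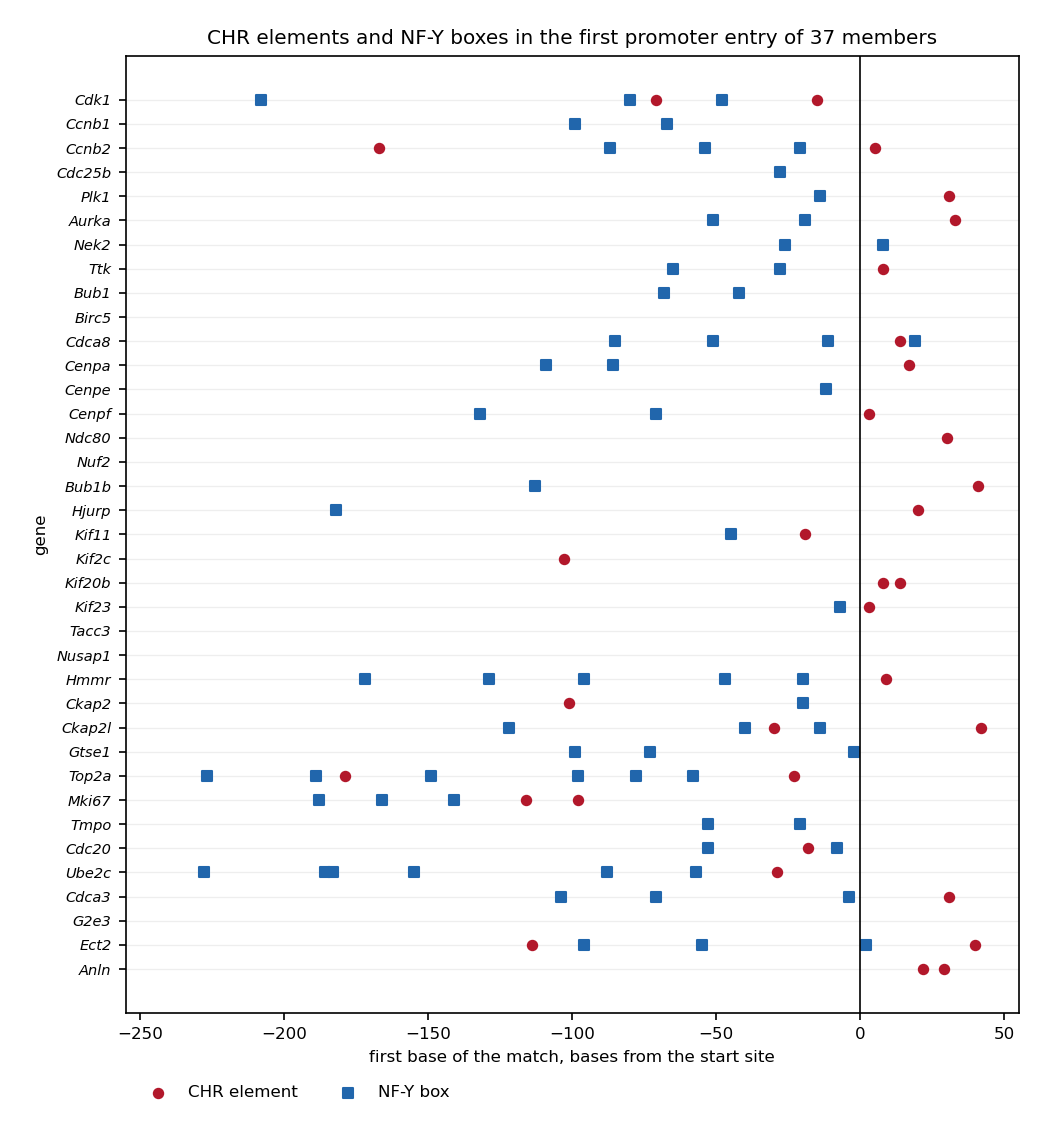
Position of each CHR element (exact letters TTTGAA, circles) and NF-Y box (CCAAT, squares) in the first promoter entry of 37 members, in bases from the start site (vertical line). In this entry 25 members hold TTTGAA, mostly close to the start site, and 28 hold CCAAT, mostly upstream of it.

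Between 14087723 and 34248172 reads per library fell on genes, and 38.4 to 73.7% of a library's reads fell on no single gene. The 44 members together received 2361 to 6478 reads per library. At this depth 24 members had at least 10 reads in every library, whereas 20 had fewer than 10 in at least 1 of them, with a lowest count of 1. Levels are given as counts per 1000000 reads on genes (CPM), with library sizes scaled by the TMM method of edgeR. Libraries that carried the same replicate number in different groups deviated from their group means together, although the labels do not say what the number stands for. The pairs of number 1 were not set apart from pairs of different numbers in this. Those of numbers 2, 3 and 4 were, which makes the number a shared source of variation there. Values are therefore given for 2 fits of edgeR's quasi-likelihood test, 1 without and 1 with the replicate number, at a Benjamini-Hochberg adjusted p under 0.05 over all 17038 genes. Log2 fold changes, unadjusted p-values and DESeq2 results are those without the replicate number unless stated otherwise. The p-values measure only the spread between these libraries. All 12 neuron markers were read in every library, and their summed level was 4968 to 8853 CPM in the control, 5333 to 9318 with apoE2, 3412 to 8199.6 with apoE3 and 4061 to 8707 with apoE4. All 10 astrocyte markers were read in every library too, and their sum was 1428 to 3213 CPM in the control, 1329 to 3205 with apoE2, 1718 to 6687 with apoE3 and 1588 to 5445 with apoE4. In RNA of a whole culture, fewer cells of a type and less RNA per cell cannot be told apart.

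The level of the mitosis and spindle genes tended to be higher in the cultures that received an apoE isoform than in the control. The summed level of the 44 members was 107 to 170.2 CPM in the control, 123 to 166 with apoE2, 143 to 259 with apoE3 and 118 to 264 with apoE4, and the groups overlapped. The log2 fold change over the control was above 0 for 30 of 44 members with apoE2, 40 with apoE3 and 42 with apoE4. Their median was 0.28, 0.51 and 0.58, while the median over all tested genes was 0.010, 0.015 and 0.0020. Without the libraries of replicate number 4 the members' medians were 0.45, 0.35 and 0.47, with apoE2 above apoE3. The order of apoE3 and apoE4 turned under other settings as well. Their medians were 0.43 and 0.38 over the members that passed a stricter filter (at least 1 CPM in 8 libraries), 0.46 and 0.45 in fits of only the 2 groups compared, and 0.45 and 0.41 without control library 3. That order also turned without apoE3 library 2, apoE3 library 3, apoE4 library 4 or number 3. The apoE2 median was 0.16 without number 1 and 0.17 without number 3. Single libraries moved the medians too. With apoE2 the median was 0.15 (28 of 44 above 0) without apoE2 library 1, 0.17 (31 of 44 above 0) without control library 2, 0.18 (29 of 44 above 0) without control library 3, 0.19 (32 of 44 above 0) without apoE2 library 3 and 0.53 (39 of 44 above 0) without control library 4. With apoE3 it was 0.16 (29 of 44 above 0) without apoE3 library 4 and 0.79 (42 of 44 above 0) without control library 4, and with apoE4 it was 0.22 (32 of 44 above 0) without apoE4 library 4. The control had the lowest group mean for 29 members and the highest for 0 of them. These counts are not independent, because all 3 comparisons use the same control libraries and because the members vary together. For single members the standard error of the log2 fold change was large, with a median of 0.44 for apoE4.

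Without the replicate number in the fit, 0 of 44 members passed the adjusted p with apoE2, apoE3 or apoE4, and 0%, 0.00587% and 0.194% of all tested genes did. At an unadjusted p under 0.05, edgeR gave 1, 3 and 7 members, all of them higher than in the control. These are 2.27%, 6.82% and 15.9% of the members, against 2.79%, 6.43% and 3.3% of all tested genes, so that the members were near the background with apoE2 and apoE3 and above it with apoE4. DESeq2 gave 1 member (2.27%) at an adjusted p under 0.05 in each of the 3, against 0.147%, 0.299% and 0.511% of the same genes. The smallest adjusted p of edgeR among the members was 0.651, 0.202 and 0.118. The criterion of the study, a change of at least 2-fold with an unadjusted p under 0.05, was met by 1, 3 and 6 members, or 2.27, 6.82 and 13.6% of them, against 0.722%, 1.96% and 1.15% of all tested genes. That number for apoE3 was 1 without apoE3 library 4, 5 without control library 4 and 6 without apoE3 library 2. For apoE4 it was 2 without apoE4 library 4, 3 without control library 2 and 10 without apoE4 library 2. With the replicate number in the fit, 1 member passed the adjusted p with apoE2 (*Top2a*), 2 with apoE3 (*Top2a* and *Gtse1*) and 4 with apoE4 (*Cenpf*, *Nek2*, *Bub1b* and *Ect2*), and each was higher than in the control. In that fit 1.73%, 11.7% and 3.3% of all tested genes passed in either direction, so that the members' shares of 2.27, 4.55 and 9.09% were near the background for apoE2, below it for apoE3 and above it for apoE4. Because the members were chosen with earlier results of these data known, none of these shares is an independent test. With 1 library left out, the number of calls for apoE2 was 0 without control library 1, apoE2 library 2 or apoE2 library 3 and 4 without apoE2 library 4. For apoE3 it was 1 without control library 1, control library 4, apoE2 library 2 or apoE3 library 4, 4 without control library 2 and 5 without apoE2 library 4 or apoE3 library 2. For apoE4 it was 1 without apoE4 library 4 and 2 without control library 1 or apoE4 library 1.

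**Figure D2:**
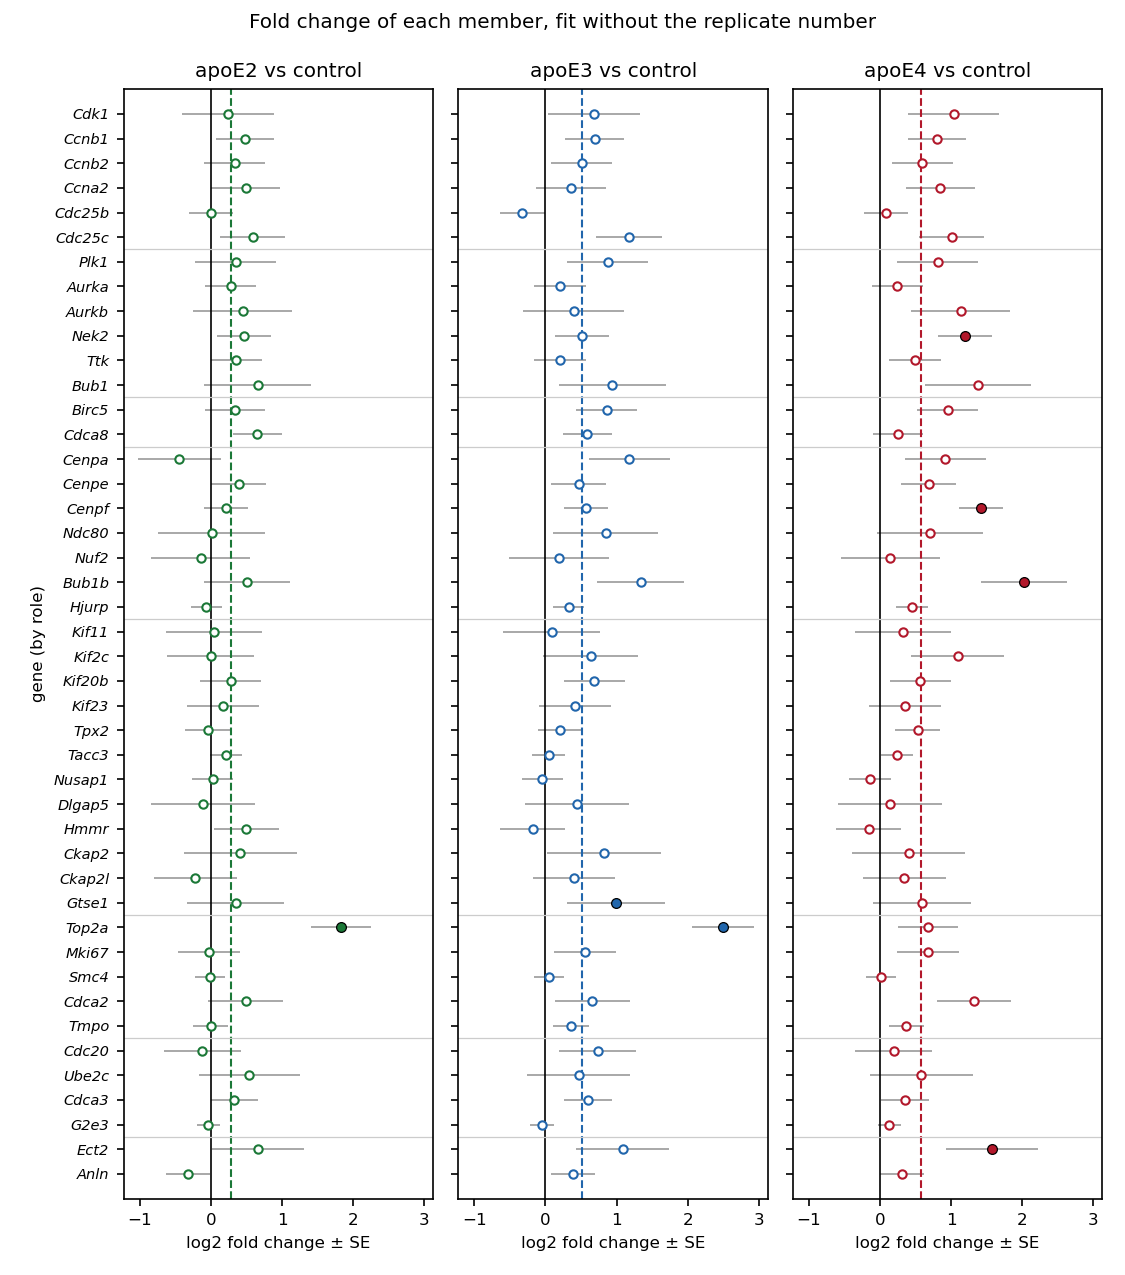
Log2 fold change over the control (horizontal axis) of each of the 44 members, in the order of their roles, for apoE2, apoE3 and apoE4, with the standard error of the fit without the replicate number as bars. Filled points passed an adjusted p under 0.05 with the replicate number in the fit, and the dashed line marks the median of the members, at 0.28, 0.51 and 0.58.

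*Top2a* encodes topoisomerase IIα, which untangles replicated DNA before chromosomes separate, and it is a usual marker of proliferating cells. *Top2a* had 2.18, 2.45, 4.57 and 7.43 CPM in control libraries 1 to 4, 8.87, 15.3, 13.1 and 21.4 CPM with apoE2, 26.5, 35.0, 15.8 and 16.5 CPM with apoE3 and 6.23, 5.78, 4.15 and 10.4 CPM with apoE4. All 8 libraries with apoE2 or apoE3 lay above all 4 control libraries, whereas the apoE4 libraries overlapped the control. Against the control its log2 fold change (± SE) was 1.83 ± 0.42, 2.50 ± 0.43 and 0.68 ± 0.42 for apoE2, apoE3 and apoE4. The adjusted p was 0.651, 0.202 and 1.00 without the replicate number in the fit and 0.0140, 5.59e-04 and 0.359 with it. In the fit with the number its log2 fold change was 1.84 ± 0.34 with apoE2 and 2.58 ± 0.35 with apoE3. *Top2a* thus rose with apoE2 and apoE3 in the second fit, and DESeq2 without the replicate number called the same changes (adjusted p = 0.0179 and 1.99e-05). Without a filter on low counts, edgeR with the replicate number also called *Top2a* with apoE4 against the control. The call with apoE3 was kept when any single library was left out. That with apoE2 was lost without control library 1, apoE2 library 2 or apoE2 library 3, with an adjusted p of 0.0732, 0.0517 and 0.0593.

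*Top2a* varied differently from most members. Across the 16 libraries the log2 level of *Top2a* had a correlation of 0.27 with the mean of the other members, and 77.6% of its variance lay between groups and 6.95% between replicate numbers. For the median member these shares were 19.0% and 49.2%, and for the median of all tested genes 14.4% and 56.1%. Its promoter is the one with the most CCAAT matches among those printed. A small nucleolar RNA gene, *Gm23451*, overlaps 1.35% of the exon bases of *Top2a* on the same strand, and its part in the counts was not tested.

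Among the 7 kinetochore and centromere genes, 2 rose with apoE4 when the replicate number was in the fit (*Cenpf* and *Bub1b*), and 0 were called by edgeR with apoE2 or apoE3, where without the replicate number an unadjusted p under 0.05 was found for 0 and 1 and a DESeq2 call for 0. DESeq2 with the replicate number called *Bub1b* with apoE3 (adjusted p = 0.0438). The median log2 fold change of the group was 0.012, 0.57 and 0.71 with apoE2, apoE3 and apoE4. *Cenpf* encodes a large coiled-coil protein that joins the kinetochore in late G2. *Cenpf* had 3.22, 2.49, 5.96 and 5.49 CPM in control libraries 1 to 4, 5.98, 4.70, 5.32 and 3.99 CPM with apoE2, 6.85, 4.83, 6.28 and 7.60 CPM with apoE3 and 13.1, 7.20, 8.74 and 16.9 CPM with apoE4. Each apoE4 library lay above every control library and above every apoE2 library. Its log2 fold change was 0.22 ± 0.31, 0.57 ± 0.31 and 1.42 ± 0.31 with the 3 isoforms. For apoE4 the adjusted p was 0.118 without the replicate number, 0.00353 with it and 0.00369 by DESeq2, with a log2 fold change of 1.40 ± 0.24 with the replicate number, and the edgeR call with the replicate number was kept when any single library was left out. Without apoE4 library 2, *Cenpf* also passed in the fit without the replicate number (adjusted p = 0.0470).

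*Bub1b* encodes BUBR1, the checkpoint protein that holds back anaphase until every kinetochore is attached. *Bub1b* had 0.636, 0.241, 0.453 and 0.680 CPM in control libraries 1 to 4, 0.845, 0.573, 0.650 and 0.788 CPM with apoE2, 0.457, 0.614, 1.03 and 3.02 CPM with apoE3 and 2.44, 0.569, 1.77 and 3.46 CPM with apoE4. Its levels were low, and apoE4 library 2 lay within the range of the control while the other 3 apoE4 libraries lay above it. Against the control the log2 fold change was 0.51 ± 0.61, 1.34 ± 0.61 and 2.02 ± 0.61, and the adjusted p for apoE4 was 0.580 without and 0.0150 with the replicate number, where the log2 fold change was 1.91 ± 0.40. The latter was 0.0587, 0.0808, 0.0714 and 0.0680 without control library 3, control library 4, apoE4 library 1 and apoE4 library 4. *Cenpa* encodes the histone H3 variant that marks the centromere. *Cenpa* had 0.681, 0.724, 0.418 and 0.628 CPM in control libraries 1 to 4, 0.704, 0.458, 0.383 and 0.305 CPM with apoE2, 1.90, 0.287, 0.609 and 2.88 CPM with apoE3 and 1.49, 0.683, 0.885 and 1.63 CPM with apoE4. Libraries 4 and 1 of apoE3 were the highest for *Cenpa*, followed by libraries 4 and 1 of apoE4, and its log2 fold change was −0.44 ± 0.58, 1.18 ± 0.57 and 0.92 ± 0.57. *Hjurp*, whose product loads CENP-A onto DNA, averaged 10.8 ± 2.32, 10.3 ± 0.598, 13.5 ± 4.35 and 14.8 ± 3.19 CPM (SD, n = 4) in the control, apoE2, apoE3 and apoE4 libraries. Neither passed the adjusted p against the control in either fit. *Cenpe*, a kinetochore motor, and *Ndc80* and *Nuf2*, which bind microtubules within 1 complex, had log2 fold changes of 0.69 ± 0.39, 0.71 ± 0.74 and 0.15 ± 0.69 with apoE4. In the control libraries *Ndc80* had the lowest level per kb of exon of all members.

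Of the 6 mitotic kinases, *Nek2* rose with apoE4 when the replicate number was in the fit, and the other 5 were not called by edgeR with any isoform. Without the replicate number these 5 had no unadjusted p under 0.05 in edgeR and no call by DESeq2, whereas with it *Bub1* with apoE4 was past the 2-fold criterion of the study (log2 fold change 1.10 ± 0.51, unadjusted p = 0.0460, adjusted p = 0.291, edgeR). The median log2 fold change of the 6 was 0.40, 0.46 and 0.97 with apoE2, apoE3 and apoE4. *Nek2* encodes the kinase that loosens the link between centrosomes before the spindle forms. *Nek2* had 1.09, 1.41, 1.50 and 2.41 CPM in control libraries 1 to 4, 2.39, 2.18, 1.68 and 2.54 CPM with apoE2, 1.37, 1.43, 2.09 and 4.26 CPM with apoE3 and 3.66, 2.76, 2.65 and 5.64 CPM with apoE4. All 4 apoE4 libraries lay above all 4 control libraries, and the other 2 isoforms overlapped the control. The log2 fold change with apoE4 was 1.20 ± 0.38, with an adjusted p of 0.679 without and 0.0119 with the replicate number, where it was 1.18 ± 0.24. The call was lost without control library 1, apoE4 library 1 or apoE4 library 4 (adjusted p = 0.0662, 0.0530 and 0.0529). An antisense gene, *Gm38037*, overlaps 6.60% of the exon bases of *Nek2*, and reads of the 2 cannot be told apart if the counting ignored strand.

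The other 5 kinases also had positive log2 fold changes with apoE4, with wide errors. With apoE4 the log2 fold change was 1.38 ± 0.74 for *Bub1*, a checkpoint kinase, 1.14 ± 0.69 for *Aurkb*, the enzyme of the chromosomal passenger complex, and 0.81 ± 0.57 for *Plk1*, the polo kinase. It was 0.50 ± 0.36 for *Ttk*, which starts the spindle checkpoint, and 0.25 ± 0.36 for *Aurka*, the Aurora kinase of the spindle poles. Antisense exons of *Gm44985* overlap 7.09% of the exon bases of *Plk1*. The passenger partners *Birc5* (survivin) and *Cdca8* (borealin) did not pass the adjusted p with any isoform in either fit. *Birc5* had 0.590, 0.804, 0.628 and 1.10 CPM in control libraries 1 to 4, 1.06, 0.496, 1.38 and 1.02 CPM with apoE2, 1.29, 0.737, 1.07 and 2.62 CPM with apoE3 and 1.63, 0.797, 1.88 and 1.78 CPM with apoE4. Its log2 fold change was 0.34 ± 0.43, 0.86 ± 0.43 and 0.95 ± 0.43, and the groups overlapped. *Cdca8* had 0.545, 1.01, 0.976 and 1.31 CPM in control libraries 1 to 4, 1.41, 1.49, 0.957 and 2.16 CPM with apoE2, 1.29, 1.56, 1.10 and 1.84 CPM with apoE3 and 0.948, 0.826, 0.940 and 1.88 CPM with apoE4. The highest mean of *Cdca8* was in the apoE2 group, and its log2 fold change was 0.65 ± 0.35, 0.59 ± 0.35 and 0.26 ± 0.35.

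The cyclin-CDK1 core was higher in the isoform groups on average, with a median log2 fold change over its 6 genes of 0.41, 0.60 and 0.83, but 0 of the 6 passed the adjusted p of edgeR in either fit, or of DESeq2 without the replicate number, with any isoform. At an unadjusted p under 0.05 edgeR without the replicate number gave *Cdc25c* with apoE3 and with apoE4. *Cdk1* had 0.454, 0.603, 0.558 and 1.36 CPM in control libraries 1 to 4, 1.34, 0.725, 0.459 and 1.02 CPM with apoE2, 1.22, 0.287, 0.609 and 2.75 CPM with apoE3 and 1.42, 0.626, 1.11 and 2.95 CPM with apoE4. The 2 highest values were those of the apoE3 and apoE4 libraries with number 4, and the remaining libraries of those groups overlapped the control. For *Cdk1* the log2 fold change was 0.24 ± 0.64, 0.69 ± 0.65 and 1.04 ± 0.64, and its 95% interval for apoE4 was −0.33 to 2.40. *Ccnb1* encodes cyclin B1, which activates CDK1. *Ccnb1* had 0.590, 0.402, 0.453 and 0.732 CPM in control libraries 1 to 4, 0.845, 0.458, 0.803 and 0.915 CPM with apoE2, 0.533, 0.532, 0.837 and 1.64 CPM with apoE3 and 0.948, 0.512, 0.995 and 1.37 CPM with apoE4. Its log2 fold change was 0.48 ± 0.41, 0.70 ± 0.41 and 0.80 ± 0.41, with a 95% interval of −0.076 to 1.69 for apoE4.

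*Cdc25c* encodes the phosphatase that removes the inhibiting phosphates from CDK1. *Cdc25c* had 0.318, 0.281, 0.384 and 0.262 CPM in control libraries 1 to 4, 0.282, 0.763, 0.306 and 0.508 CPM with apoE2, 0.989, 0.369, 0.457 and 1.11 CPM with apoE3 and 0.609, 0.484, 0.387 and 1.07 CPM with apoE4. Each apoE4 library lay above each control library, but the lowest apoE4 value was 0.387 CPM and the highest control value 0.384 CPM. These groups held 54 and 30 reads of it. The log2 fold change was 0.59 ± 0.46, 1.17 ± 0.46 and 1.01 ± 0.46, with an adjusted p of 0.134 for apoE3 and 0.325 for apoE4 with the replicate number in the fit. *Cdc25b*, its relative, had log2 fold changes of −0.0017 ± 0.31, −0.32 ± 0.31 and 0.089 ± 0.31. *Ccnb2* and *Ccna2*, which encode cyclins B2 and A2, had 0.60 ± 0.43 and 0.85 ± 0.48 with apoE4. Exons of a gene on the other strand overlap 12.7% of the exon bases of *Cdc25c* (*Gm3550*) and 12.5% of those of *Ccna2* (*Exosc9*). Reads in these bases are uncertain if the counting ignored strand, and the share of reads concerned was not measured. *Ccnb1* and *Ccnb2* have pseudogene copies that may share reads.

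Cytokinesis was represented by *Ect2* and *Anln*. *Ect2* encodes the exchange factor that activates RhoA at the cleavage furrow. *Ect2* had 0.363, 0.201, 0.662 and 1.57 CPM in control libraries 1 to 4, 1.48, 0.649, 1.11 and 1.17 CPM with apoE2, 1.29, 0.328, 1.37 and 2.95 CPM with apoE3 and 1.96, 1.02, 1.71 and 3.61 CPM with apoE4. Within each replicate number the apoE4 library lay above the control library, although the ranges of the 2 groups overlapped. It had log2 fold changes of 0.66 ± 0.65, 1.08 ± 0.65 and 1.58 ± 0.65. With apoE4 the adjusted p was 1.00 without and 0.0135 with the replicate number (log2 fold change 1.68 ± 0.35), and the latter was 0.0723 without control library 1 and 0.0549 without apoE4 library 4. With apoE3 DESeq2 with the replicate number also called *Ect2* (adjusted p = 0.0457), and edgeR with the number did not (0.0654). *Anln*, the anillin of the contractile ring, averaged 4.89 ± 2.35, 3.92 ± 0.839, 6.41 ± 1.94 and 6.08 ± 1.07 CPM (SD, n = 4) in the control, apoE2, apoE3 and apoE4 libraries and was not called by edgeR in either fit. Without a filter on low counts, edgeR with the replicate number called it higher with apoE4 and with apoE3 than with apoE2.

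Among the 12 genes of spindle assembly and motors, *Gtse1* was the only one called against the control by edgeR in either fit or by DESeq2 without the replicate number, namely by edgeR with apoE3 and the replicate number in the fit. The median log2 fold change of the 12 was 0.10, 0.41 and 0.35. *Gtse1* encodes a microtubule-associated protein of G2 and M that also restrains p53. *Gtse1* had 4.27, 1.61, 2.16 and 4.60 CPM in control libraries 1 to 4, 6.83, 1.60, 2.64 and 5.06 CPM with apoE2, 8.60, 1.92, 2.32 and 12.4 CPM with apoE3 and 6.70, 1.57, 2.16 and 8.74 CPM with apoE4. Here the libraries of numbers 1 and 4 were higher than those of numbers 2 and 3 in every group, and within each number apoE3 exceeded the control. The log2 fold change with apoE3 was 0.99 ± 0.69 without and 0.77 ± 0.23 with the replicate number, and the adjusted p was 0.806 and 0.0389. The second call was lost when any of 6 single libraries was left out, with an adjusted p of 0.165 without control library 1, 0.151 without control library 4, 0.0529 without apoE2 library 2, 0.108 without apoE3 library 1, 0.200 without apoE3 library 4 and 0.0521 without apoE4 library 1.

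The same division of the libraries was seen for *Ckap2*, a spindle-stabilizing protein and the member with the highest level per kb. *Ckap2* had 15.4, 2.89, 5.33 and 14.5 CPM in control libraries 1 to 4, 25.6, 4.20, 7.65 and 13.4 CPM with apoE2, 25.6, 3.15, 8.22 and 30.6 CPM with apoE3 and 15.2, 3.05, 6.25 and 26.1 CPM with apoE4. Its log2 fold change was 0.41 ± 0.79, 0.82 ± 0.80 and 0.41 ± 0.79. *Kif2c* encodes a motor that takes microtubules apart at the kinetochore. *Kif2c* had 0.454, 0.201, 0.244 and 0.471 CPM in control libraries 1 to 4, 0.563, 0.382, 0.230 and 0.229 CPM with apoE2, 0.228, 0.205, 0.419 and 1.31 CPM with apoE3 and 0.542, 0.427, 0.276 and 1.68 CPM with apoE4. Its groups overlapped, with log2 fold changes of −0.0034 ± 0.61, 0.64 ± 0.67 and 1.10 ± 0.65, and *Kif11*, the motor that pushes the spindle poles apart, had log2 fold changes of 0.042 ± 0.67, 0.090 ± 0.68 and 0.33 ± 0.68. The midzone motors *Kif23* and *Kif20b* had 0.35 ± 0.51 and 0.57 ± 0.43 with apoE4, and *Tpx2*, the activator of Aurora A, had 0.53 ± 0.32. The microtubule-binding genes *Tacc3*, *Nusap1*, *Dlgap5*, *Hmmr* and *Ckap2l* lay between −0.15 and 0.34 with apoE4. *Nusap1* and *Hmmr* were the 2 of 44 members below 0 in that comparison. Exons of *Tmem129* on the other strand overlap 8.14% of the exon bases of *Tacc3*.

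**Figure D3:**
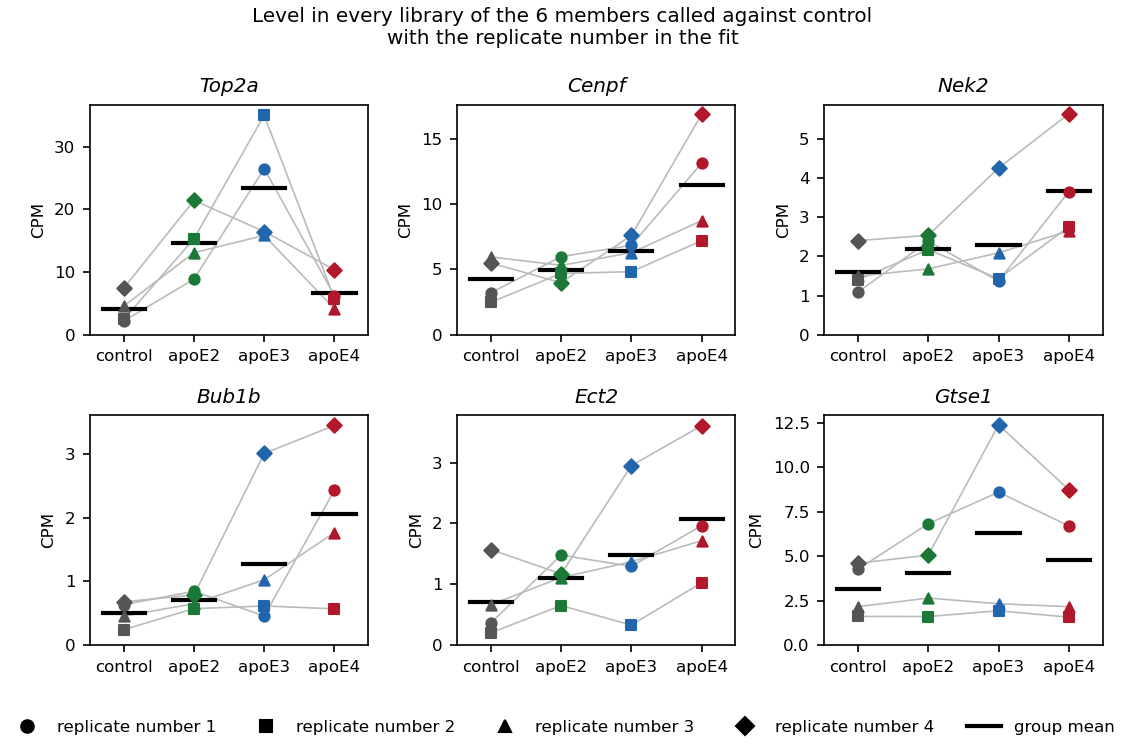
CPM in every library (points, marker shape by replicate number, grey lines joining equal numbers) of the 6 members that passed an adjusted p under 0.05 against the control with the replicate number in the fit, with the group mean as a black bar. *Top2a* was highest with apoE3, where its mean was 23.4 CPM, *Gtse1* was highest with apoE3 as well, and the other 4 were highest with apoE4.

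*Mki67*, which encodes the Ki-67 protein that coats mitotic chromosomes and marks dividing cells, did not follow *Top2a*. *Mki67* had 6.27, 2.93, 4.46 and 7.27 CPM in control libraries 1 to 4, 6.97, 2.90, 6.73 and 3.94 CPM with apoE2, 5.71, 4.01, 7.84 and 13.3 CPM with apoE3 and 11.4, 4.36, 6.08 and 11.8 CPM with apoE4. The apoE2 and control libraries overlapped, with control library 4 above every apoE2 library, whereas apoE3 libraries 3 and 4 and apoE4 libraries 1 and 4 lay above all control libraries. Its log2 fold change was −0.030 ± 0.43, 0.56 ± 0.43 and 0.68 ± 0.43, with 95% intervals of −0.96 to 0.90, −0.37 to 1.49 and −0.25 to 1.61, and edgeR made no call in either fit. *Cdca2* encodes a protein that targets a phosphatase to chromosomes at mitotic exit. *Cdca2* had 0.363, 0.161, 0.174 and 0.419 CPM in control libraries 1 to 4, 0.493, 0.305, 0.306 and 0.457 CPM with apoE2, 0.0761, 0.369, 0.495 and 0.787 CPM with apoE3 and 0.474, 0.427, 0.774 and 1.12 CPM with apoE4. Its apoE4 libraries all lay above its control libraries, but the lowest apoE4 value was 0.427 CPM and the highest control value 0.419 CPM. These groups held 58 and 25 reads of it. The log2 fold change was 1.33 ± 0.52, with an adjusted p of 0.122 with the replicate number in the fit. *Smc4*, a condensin subunit, and *Tmpo*, a lamina-associated protein of the nuclear envelope, are also read in cells that do not divide. Their log2 fold changes with apoE4 were 0.011 ± 0.21 and 0.37 ± 0.25.

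Of the 4 genes of ubiquitin ligation and mitotic exit, 0 passed the adjusted p of edgeR in either fit with any isoform. Without the replicate number 0 passed that of DESeq2 and 0 had an unadjusted p under 0.05 in edgeR, and their median log2 fold change was 0.15, 0.53 and 0.27. *Cdca3* encodes a trigger of mitotic entry that is itself degraded at exit. *Cdca3* had 0.727, 0.965, 0.593 and 1.36 CPM in control libraries 1 to 4, 0.985, 1.11, 1.42 and 1.04 CPM with apoE2, 1.29, 1.47, 0.685 and 2.10 CPM with apoE3 and 0.948, 1.14, 1.11 and 1.42 CPM with apoE4. Its log2 fold change was 0.33 ± 0.33, 0.60 ± 0.34 and 0.35 ± 0.33. *Cdc20*, the activator of the anaphase-promoting complex, had log2 fold changes of −0.12 ± 0.54, 0.73 ± 0.54 and 0.19 ± 0.54, and the apoE3 library with number 4 held its highest value, 6.23 CPM. *Ube2c*, the conjugating enzyme of that complex, had 0.54 ± 0.71, 0.47 ± 0.73 and 0.58 ± 0.72, and exons of *Tnnc2* on the other strand overlap 22.8% of its exon bases. *G2e3*, a ubiquitin ligase, varied least, between 13.2 and 23.1 CPM over the 16 libraries.

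The members differed more between replicate numbers than between groups. Of the 44, 34 had the larger share of their variance between numbers, and 10 (22.7%) had it between groups, against 18.0% of all tested genes. Number 4 held the highest mean of 38 members and number 2 the lowest of 29. The apoE3 library of number 4 was the highest of all 16 for 20 members and the apoE4 library of number 4 for 17. Their summed levels, 259 and 264 CPM, compared with 170.2 and 165 CPM in the control and apoE2 libraries of the same number. The sums ran from 107 to 143 CPM over the libraries of number 2 and from 113 to 144 CPM over those of number 3.

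**Figure D4:**
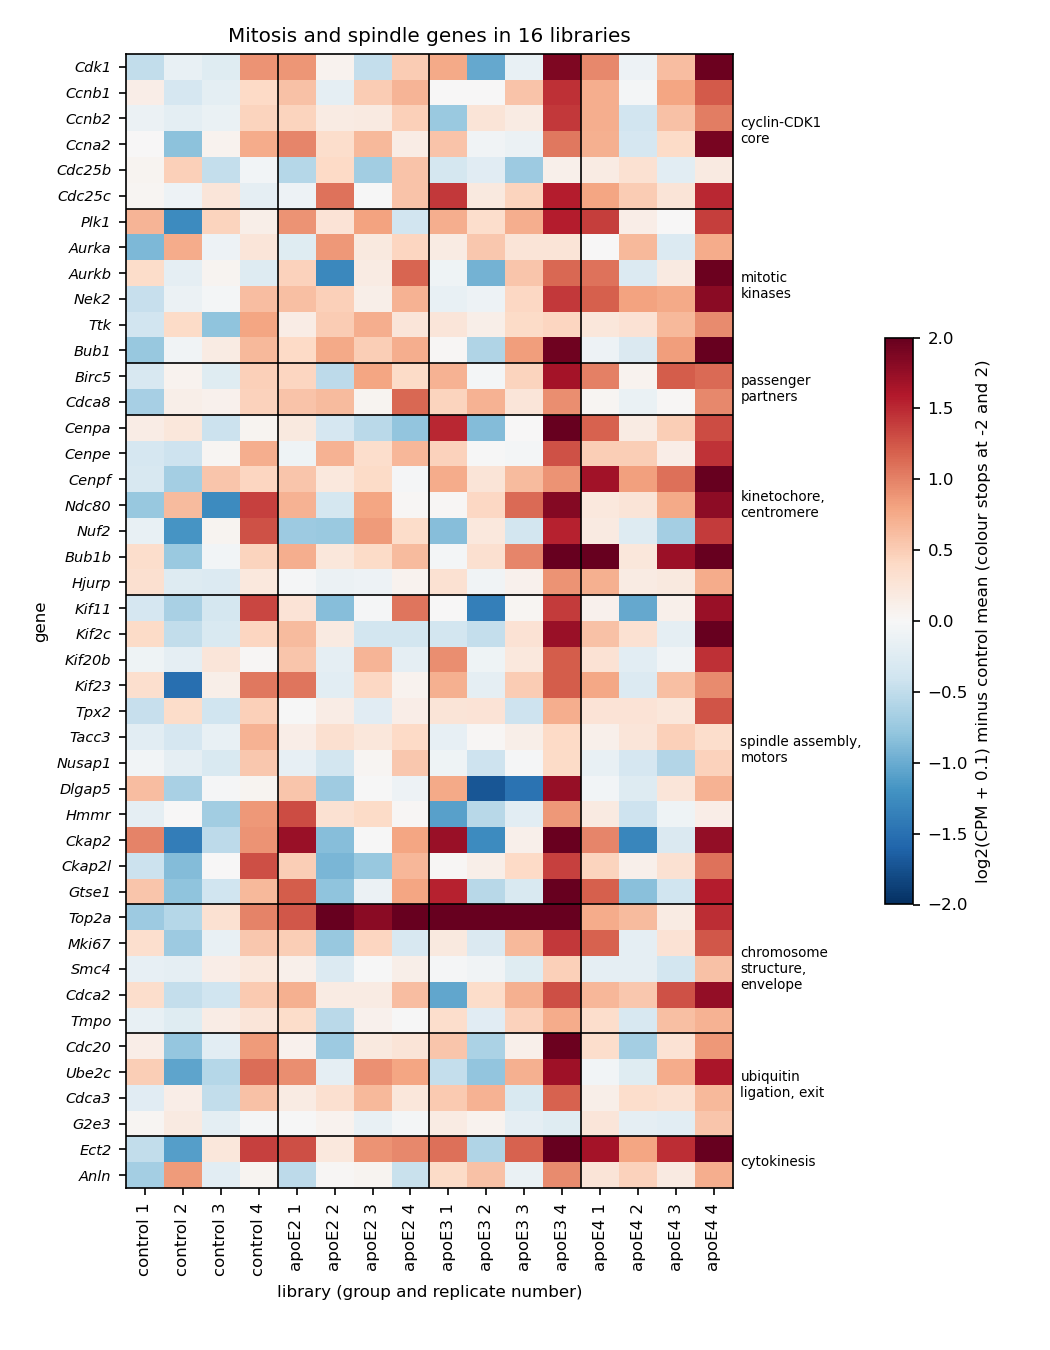
Level of each member (rows, by role) in each library (columns), as log2(CPM + 0.1) minus the mean of the control libraries, with the colour scale stopping at −2 and 2. The columns apoE3 4 and apoE4 4 are the reddest over most rows, and the row of *Top2a* stands apart in being red across apoE2 and apoE3.

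The difference from the control was therefore also taken within each replicate number. With apoE4 the median log2 difference over the members was 0.66, 0.086, 0.45 and 0.65 in numbers 1 to 4, and with apoE3 it was 0.44, 0.13, 0.34 and 0.74. In number 2 the difference was small for every isoform, and 24 of 44 members were higher with apoE4 there. With apoE2 the medians were 0.46, 0.17, 0.32 and −0.22, so that in number 4 the members were lower than in the control, with 14 of 44 higher. Over all tested genes these medians lay between −0.0033 and 0.057. Higher in all 4 numbers were 8 members with apoE2, 14 with apoE3 and 15 with apoE4. This count was not made over all tested genes, so it has no background. The comparisons also share the control libraries.

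**Figure D5:**
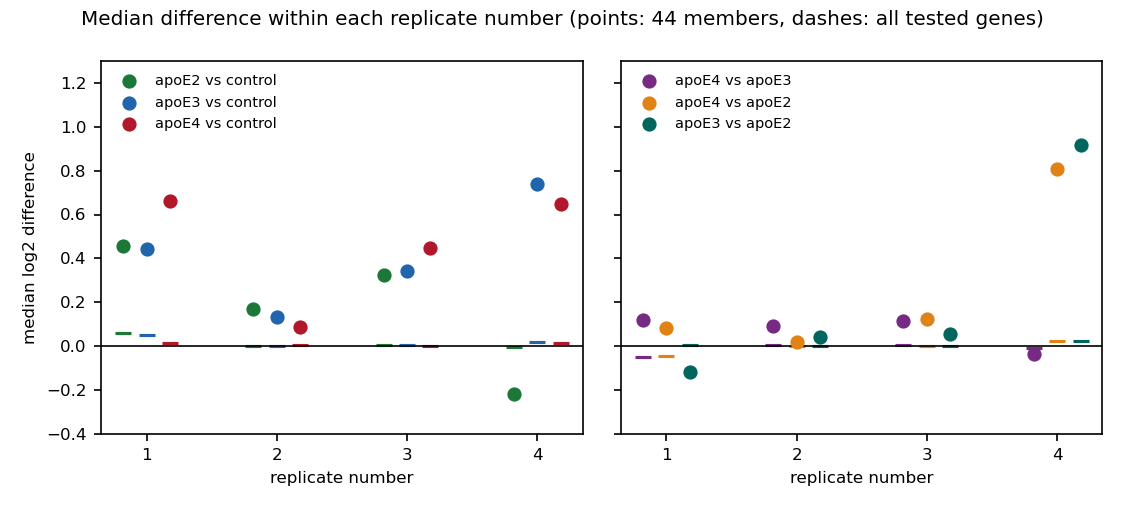
Median log2 difference (vertical axis) over the 44 members (points) and over all tested genes (dashes) within each replicate number (horizontal axis), for each isoform against the control on the left and between isoforms on the right. The members' medians for apoE3 and apoE4 against the control are above 0 in all 4 numbers, whereas that for apoE2 is −0.22 in number 4, and the 2 comparisons with apoE2 on the right stand well above 0 in number 4 only.

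Between isoforms, the members were higher with apoE4 than with apoE2 (median log2 fold change 0.32, 38 of 44 above 0) and higher with apoE3 than with apoE2 (0.31, 33 of 44), and the median between apoE4 and apoE3 was 0.090 (26 of 44). The direction of the last depended on single libraries, since it was −0.18 (13 of 44 above 0) without apoE4 library 4, −0.081 (19 of 44 above 0) without apoE3 library 2 and −0.0055 (22 of 44 above 0) without apoE3 library 1. It was 0.030 (23 of 44 above 0) without apoE3 library 3, 0.044 (27 of 44 above 0) without apoE4 library 1, 0.21 (32 of 44 above 0) without apoE4 library 2 and 0.44 (42 of 44 above 0) without apoE3 library 4, and it was 0.017 without number 1 and 0.17 without number 4. Between apoE4 and apoE2 the median was 0.034 (27 of 44 above 0) without apoE4 library 4, 0.51 (36 of 44 above 0) without apoE2 library 1 and 0.55 (39 of 44 above 0) without apoE4 library 2, and between apoE3 and apoE2 it was −0.072 (19 of 44 above 0) without apoE3 library 4. The differences from apoE2 rested on number 4. Within that number the medians were 0.81 for apoE4 and 0.92 for apoE3, and without it the medians over the remaining libraries were 0.042 and −0.043. Without the replicate number in the fit, 0 members passed the adjusted p of edgeR in any comparison of isoforms, against 0.147% of all tested genes for apoE4 and apoE3, 0.252% for apoE4 and apoE2 and 0% for apoE3 and apoE2. At an unadjusted p under 0.05 there were 2, 5 and 2 members in this order (4.55%, 11.4% and 4.55%), against 4.7%, 5.34% and 2.28% of all tested genes. By the adjusted p of DESeq2 there were 1, 1 and 0, against 0.393%, 0.857% and 0.0293% of the same genes. A change of at least 2-fold with an unadjusted p under 0.05 was seen for 1, 4 and 1 members, against 1.25%, 1.3% and 0.687% of all tested genes. With 1 library left out, that number for apoE4 and apoE3 was 2 without apoE4 library 2 and 3 without apoE3 library 4. For apoE4 and apoE2 it was 1 without apoE4 library 4 and 2 without apoE2 library 4. For apoE3 and apoE2 it was 2 without apoE3 library 2. With the replicate number in the fit the calls were 1, 2 and 0 members, against 1.77%, 4.44% and 1.31% of all tested genes. For apoE4 and apoE3 that count was 0 without apoE3 library 1 and 2 without apoE2 library 4. For apoE4 and apoE2 it was 1 without control library 3, control library 4, apoE2 library 4, apoE3 library 3, apoE4 library 1, apoE4 library 3 or apoE4 library 4 and 4 without apoE3 library 4.

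The call between apoE4 and apoE3 was *Top2a*, which was lower with apoE4. Its 4 apoE4 libraries lay below its 4 apoE3 libraries, and the log2 fold change was −1.82 ± 0.42 without and −1.91 ± 0.33 with the replicate number, with an adjusted p of 0.217 and 0.00754. The latter was 0.0520 without apoE3 library 1. The calls between apoE4 and apoE2 were *Cenpf* and *Hjurp*, both higher with apoE4. For *Cenpf* the log2 fold change was 1.20 ± 0.31 without and 1.15 ± 0.23 with the replicate number (adjusted p = 0.191 and 0.0102), and the latter call was kept when any single library was left out. *Hjurp* had 13.3, 8.89, 8.72 and 12.2 CPM in control libraries 1 to 4, 10.4, 9.81, 9.83 and 11.1 CPM with apoE2, 13.1, 10.1, 11.2 and 19.8 CPM with apoE3 and 17.3, 11.9, 12.1 and 17.7 CPM with apoE4. Its apoE4 libraries lay just above its apoE2 libraries, with a log2 fold change of 0.49 ± 0.13 and an adjusted p of 0.0425 with the replicate number against 0.836 without it. This small difference lost its call in 11 of the 16 fits that left out 1 library, which were all but those without control library 1, apoE2 library 2, apoE2 library 3, apoE3 library 2 and apoE3 library 4, with adjusted p-values up to 0.164 (without apoE2 library 4).

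Per kb of exon, the control libraries held most RNA of *Ckap2* (2.96 CPM per kb), followed by *Smc4* (2.41), *G2e3* (2.00), *Tmpo* (1.35) and *Hjurp* (1.29 CPM per kb). Those same 5 genes took 44.6% of the members' CPM over all libraries, so each weighs more in the summed level than a typical member. *Top2a* had the highest mean of all members with apoE3. Without *Top2a* the mean sum was 124, 133, 160 and 169 CPM in the control, apoE2, apoE3 and apoE4 libraries. With it the mean sum was 129, 148, 183 and 176 CPM. *Mki67* (0.520), *Top2a* (0.461), *Cdk1* (0.151) and *Ccnb1* (0.129 CPM per kb) lay lower, and *Cdca2* (0.0489) and *Ndc80* (0.0485 CPM per kb) were lowest. With apoE3 the level of *Top2a* was 2.60 CPM per kb, close to that of *Smc4*. These lengths are of merged exons in GENCODE M21 on mm10, which may not be the annotation the authors counted.

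Across the 16 libraries the members varied together. The median correlation of log2 levels over their 946 pairs was 0.50, and 895 pairs were above 0. *Cdk1* (0.90), *Ccnb1* (0.89) and *Ect2* (0.88) followed the mean of the other members most closely, whereas *Cdc25b* (0.062), *Aurka* (0.10) and *G2e3* (0.23) did so least. Outside the group, the 5 tested genes whose pattern was most like the mean of the members were *Bmp2k* (r = 0.953), *Ehd2* (0.948), *Tmem106a* (0.947), *Casp1* (0.945) and *Slc16a1* (0.944). These correlations describe 16 libraries that share replicate numbers, and they carry no test.

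Further genes of the cell cycle were taken from lists chosen with earlier results of these data known. Of 81 other tested mitosis genes, the median log2 fold change was 0.10, 0.16 and 0.23 with apoE2, apoE3 and apoE4, below that of the 44 members, and 56, 55 and 58 were above 0. Without the replicate number none passed the adjusted p of edgeR or DESeq2 and 1, 7 and 10 had an unadjusted p under 0.05 in edgeR, and 0, 6 and 6 were called, all higher, by edgeR with the replicate number. These calls are 0%, 7.41% and 7.41% of the list, against 1.73%, 11.7% and 3.3% of all tested genes, so that the share was below the background with apoE2 and apoE3 and above it with apoE4. With apoE4 they included, with the log2 fold changes of that fit, *Espl1*, the protease separase, at 1.84 ± 0.23 (adjusted p = 4.29e-04 with the replicate number), *Stil*, a centriole assembly factor, at 1.41 ± 0.34 (0.0310), and *Kif14*, a cytokinesis motor, at 1.58 ± 0.41 (0.0465). *Racgap1*, the partner of *Ect2* at the midzone, averaged 7.57 ± 1.33, 11.8 ± 1.55, 11.2 ± 3.39 and 9.71 ± 2.35 CPM (SD, n = 4) in the control, apoE2, apoE3 and apoE4 libraries and was not called with apoE2 in either fit. Between apoE4 and apoE2, 4 of the 81 (4.94%) were called with the replicate number in the fit, near the 4.44% of all tested genes. The 3 with the smallest p without the number were *Kif14*, *Cit*, which encodes the citron kinase of cytokinesis, and *Aspm*, which encodes a protein of the spindle poles, with log2 fold changes in the fit with the number of 2.00 ± 0.42, 0.66 ± 0.13 and 1.65 ± 0.32 (adjusted p = 0.0127, 0.00867 and 0.00787).

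Of 13 G2/M transcription factors, *Foxm1* and *Mybl2* were called with apoE4 when the replicate number was in the fit, with log2 fold changes in that fit of 1.35 ± 0.26 and 1.98 ± 0.47 (adjusted p = 0.00886 and 0.0324). These are 15.4% of the list, against 3.3% of all tested genes. *Foxm1* averaged 1.25 ± 0.721 CPM in the control and 3.25 ± 1.63 CPM with apoE4, and *Mybl2* 0.289 ± 0.310 and 1.10 ± 0.705 CPM. The remaining 11, which include subunits of DREAM, were not called, and the median of the list was −0.041, 0.064 and −0.046. Of 48 S phase genes, *Cdc6*, which loads the replicative helicase, was called with apoE4 in both fits (log2 fold change 2.50 ± 0.44 without and 2.51 ± 0.36 with the replicate number, adjusted p = 0.0349 and 9.32e-04), and 0, 1 and 3 of the list were called with the replicate number in the fit, or 0%, 2.08% and 6.25%, which is below the share of all tested genes with apoE2 and apoE3 and above it with apoE4. The median of this list was 0.13, 0.10 and 0.067. Of 6 CDK inhibitors, *Cdkn2b* and *Cdkn1a* were called with apoE3 when the replicate number was in the fit, with log2 fold changes in that fit of 1.12 ± 0.25 and 0.65 ± 0.20, both higher than in the control (adjusted p = 0.0108 and 0.0482). These are 33.3% of that short list, against 11.7% of all tested genes.

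The apoE3 and apoE4 libraries of number 4, which held the highest level of most members, also had the 2 highest sums of astrocyte, neural progenitor, fibroblast and meningeal, microglia and endothelial markers and the 2 lowest sums of neuron markers. The astrocyte markers had a median log2 fold change of 0.27, 0.83 and 0.68 with apoE2, apoE3 and apoE4, and 0, 9 and 4 of 10 were called higher with the replicate number in the fit, while none was called without it. With the number in the fit, 1.73%, 11.7% and 3.3% of all tested genes were called with the 3 isoforms. The astrocyte calls are 0%, 90% and 40% of their list. For 9 tested neural progenitor markers, several of which astrocytes express too, the median was 0.26, 0.87 and 0.58, with 0, 5 and 2 called (0%, 55.6% and 22.2%). Of 6 oligodendrocyte progenitor markers 0, 4 and 1 were called (0%, 66.7% and 16.7%), of 7 oligodendrocyte markers 0, 2 and 0 (0%, 28.6% and 0%), and of 8 fibroblast and meningeal markers 1, 3 and 2 (12.5%, 37.5% and 25%). Of 9 microglia markers 0 were called by edgeR in either fit, and without the replicate number 0 were called by DESeq2 and 0 had an unadjusted p under 0.05 in edgeR. Of 3 tested endothelial markers 0, 1 and 1 were called with the replicate number in the fit (0%, 33.3% and 33.3%). The neuron markers had a median of −0.087, −0.27 and −0.062, and 1 of 12 was called higher and 3 lower with apoE3, together 33.3% of the list. The summed astrocyte markers were 6687 CPM in the apoE3 library of number 4 and 5445 CPM in the apoE4 library of that number, the 2 highest of all 16, and 1329 to 1718 CPM in number 2, where 29 of the members had their lowest mean. The summed progenitor markers were 4418 and 3519 CPM in the same 2 libraries and 316 to 501 CPM in number 2. In apoE3 library 4 and apoE4 library 4 the fibroblast and meningeal sums were 385 and 346 CPM, the microglia sums 50.0 and 38.8 CPM, the endothelial sums 7.93 and 9.20 CPM and the neuron sums 3412 and 4061 CPM. The oligodendrocyte progenitor sums were 285 and 165 CPM there, 324 and 312 CPM in apoE2 library 1 and apoE3 library 1, which were the highest, and 44.1 to 62.8 CPM in number 2, which were the lowest. *Gfap*, *Aqp4*, *Nes* and *Vim* were read in all 16 libraries, and the marker *Opalin* of oligodendrocytes and *Tmem119* of microglia were at 0 in 1 library each. The study stained cultures for GFAP at 17 DIV, and the share of labelled cells did not differ significantly between treatments. That was a count of stained cells, not of RNA. The part of astrocytes and the other cell types in the differences of the mitosis and spindle genes was not tested.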

How the data were processed

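RNA was measured in 16 libraries of primary mouse hippocampal neurons, made after ribosomal RNA depletion. Reads had been aligned by the authors with STAR (mm10) and counted per gene with HTSeq, so the deposited values are raw read counts for 48397 gene symbols in each library. The annotation and the strand setting of the counting are not given in the sources used here. The 5 HTSeq summary lines of each file, with 38.4 to 73.7% of the reads, entered neither library sizes nor tests. Library totals on genes were 14087723 to 34248172 counts. In those, *Lars2* took 0.359 to 15.0%.

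Groups and replicate numbers are those of the labels. Genes were kept by filterByExpr (count 10, total 15, proportion 0.7) of edgeR 4.0.16 (R 4.3.3), scaled by TMM and fitted with a coefficient for each of the 4 groups, and the quasi-likelihood test was used. Of the 48397 symbols 17038 were tested in 6 comparisons, with p-values adjusted by Benjamini-Hochberg within each over all tested genes. CPM are counts over library size times TMM factor. The deviations of libraries from their group means (limma 3.58.1, log2 CPM with a prior count of 2) had a correlation of 0.362 to 0.552 within replicate number 1, 0.766 to 0.831 within 2, 0.620 to 0.671 within 3 and 0.681 to 0.790 within 4, against −0.736 to 0.569 between libraries of different numbers. Number 1 was thus not set apart from the others by this measure. Every pair within a number was above 0.1, but so were pairs of different numbers, such as apoE2 library 1 with apoE3 library 4 (0.569). A limit of 0.1 therefore could not show a pairing of the libraries of number 1. The number was used as a block for all libraries, and that fit is given beside the other. The common dispersion was 0.132 without and 0.0178 with the block. Promoters are from RefSeq on GRCm38.p6, the assembly of mm10, and exon lengths and overlaps from GENCODE M21.

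The members and lists were chosen with earlier results of these data known. Values in every library were to be given for the member with the smallest unadjusted p in each role, for the 5 smallest in each comparison with the control, for members moving against the majority at an unadjusted p under 0.05, and for *Mki67*, *Top2a*, *Cdk1* and *Ccnb1*. Other lists were given by counts and up to 3 genes of smallest p, and patterns by the 5 non-members most correlated with the members' mean. *Gtse1*, *Hjurp* and *Ckap2* were added after their values were seen. The alternatives were DESeq2 1.42.0, its size factors, other filters, the per-gene test of the study's methods, fits of 2 groups, the replicate block, and each library or number left out. The scripts were tested on simulated counts.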

Additional observations from a re-analysis of the deposited data

Results flagged for a closer look

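Of 60 groups of 4 libraries tested for a library far from the others (15 members in 4 groups), 2 stood out, and chance gives about 1 in 20. For *Cdk1* control library 4 had 1.36 CPM, with the nearest control library at 0.603 CPM. For *Cdca8* apoE4 library 4 had 1.88 CPM, with the nearest at 0.948 CPM. Both are libraries of number 4, in which 38 of the 44 members had their highest mean.

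With the replicate number in the fit, 3 differences between isoforms passed an adjusted p under 0.05 (edgeR), each a test of the difference itself. *Top2a* was lower with apoE4 than with apoE3, with a log2 fold change of −1.91 (adjusted p = 0.00754). *Cenpf* and *Hjurp* were higher with apoE4 than with apoE2, by 1.15 and 0.49 on the log2 scale (adjusted p = 0.0102 and 0.0425).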

How the results depend on the processing

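In the fit without the replicate number, the 0 calls in each of 6 comparisons were also obtained with DESeq2 size factors, without a filter, with a stricter filter (at least 1 CPM in 8 libraries, 14001 genes) with fits of only the 2 groups compared and with the per-gene test of the study's methods. DESeq2 called 1 member with apoE2, 1 with apoE3, 1 with apoE4, 1 between apoE4 and apoE3 and 1 between apoE4 and apoE2. With the replicate block the calls were 1, 2, 4, 1 and 2 in this order and 0 between apoE3 and apoE2, and with the replicate block in DESeq2 they were 1, 5, 4, 2 and 3, with *Bub1b*, *Ckap2* and *Ect2* added with apoE3. With the block and no filter on low counts (34387 genes) they were 7 with apoE3, 7 with apoE4, 2 between apoE4 and apoE3, 8 between apoE4 and apoE2 and 4 between apoE3 and apoE2, with *Mki67* among those of apoE3 and of apoE4, and the cause was not tested. *Top2a* was added with apoE4, between apoE4 and apoE2 and between apoE3 and apoE2. Members changed at least 2-fold with an unadjusted p under 0.05 numbered 3, 6, 4 and 1 for apoE3, apoE4, apoE4 against apoE2 and apoE3 against apoE2. With the stricter filter, which tests fewer genes, they were 1, 3, 2 and 0. With the methods' test they were 1 for apoE3 and 0 between apoE3 and apoE2, and in the fit of only 2 groups 1 for apoE3.

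When 1 library or all 4 of a number were left out, the calls without the block ranged over 0 to 0, 0 to 1, 0 to 1, 0 to 0, 0 to 0 and 0 to 0 for apoE2, apoE3, apoE4, apoE4 against apoE3, apoE4 against apoE2 and apoE3 against apoE2. The highest came without apoE4 library 2 (*Cenpf*) and without number 4 (*Top2a* with apoE3, adjusted p = 0.0418). In the same order the 2-fold criterion gave 1 to 3, 1 to 6, 2 to 10, 1 to 3, 1 to 4 and 1 to 2, and the calls with the replicate block 0 to 4, 1 to 5, 1 to 5, 0 to 2, 1 to 4 and 0 to 0 with 1 library left out. In edgeR with the same filter, the replicate block changed no other call of a named member than those given beside the results.

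Small fold changes turned sign. The log2 fold change of *Kif2c* with apoE2, −0.0034, was 0.018 by the methods' test and 0.094 in DESeq2 with the replicate block, and it ran from −0.28 to 0.33 with a library or number left out (the latter without number 4). That of *Mki67* with apoE2, −0.030, was 8.96e-05 with the replicate block and ran from −0.27 to 0.26 (the latter without number 4). With apoE3 the values ran from −0.12 to 1.13 for *Cdk1* and from −0.21 to 1.05 for *Kif2c*, both lowest without apoE3 library 4. With apoE4 *Cdca8* ran from −0.088 (without apoE4 library 4) to 0.44, and with apoE2 *Cdk1* ran from −0.17 (without number 1) to 0.69. Of the alternatives for single members 1192 kept direction and side of the threshold, 19 turned sign and 19 passed the threshold. Of the 44 members 20 had fewer than 10 reads in at least 1 library, which limits the precision of their values.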
